A study of Homo sapiens with 6 samples.

Results

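The 8 genes described here form the first gate of the cell cycle: the D cyclins CCND1, CCND2 and CCND3, the kinases CDK4 and CDK6, and the RB family of pocket proteins, RB1, RBL1 and RBL2. They were taken by symbol from a count table of 63299 genes, each found once and on an assembled chromosome. The RNA sequenced came from LNCaP, an androgen-responsive line derived from a human prostate carcinoma. The 3 knockdown libraries (Dox+) came from cells given doxycycline, in which a short hairpin RNA lowers MEP50, and the 3 control libraries (Dox-) from cells not given it. MEP50, encoded by WDR77, is the cofactor of the arginine methyltransferase PRMT5. No library from cells given doxycycline without the hairpin was analysed here, so the drug and the knockdown cannot be told apart, and the labels do not give the length of treatment or say whether the cells were 1 clone.

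Mitogens and, in prostate cells, androgen raise D cyclins in G1. A D cyclin binds CDK4 or CDK6, and the active kinase phosphorylates the pocket proteins, which otherwise hold E2F transcription factors silent at genes of S phase. RB1 binds mainly the activating E2Fs, whereas RBL1 (the protein p107) and RBL2 (p130) bind the repressive ones, and RBL2 is the pocket protein typical of resting cells in the DREAM repressor complex. RBL1 is itself a textbook E2F target, made mostly in cycling cells. The PRMT5 and MEP50 complex has been linked to CCND1 expression in other systems, and the comparison asks what happened to this gate when MEP50 was lowered.

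WDR77 was at 15.05, 14.03 and 12.73 counts scaled to library size (CPM) in knockdown libraries 1, 2 and 3, and at 49.28, 47.16 and 36.71 CPM in control libraries 1, 2 and 3. Its groups did not overlap, and the knockdown libraries were the lower ones, as labelled. Libraries held 18568002 to 36234784 counts on genes. The 6 LNCaP and luminal prostate markers KLK3, FOLH1, TMPRSS2, KRT8, KRT18 and HOXB13 were at 244.6 CPM or more in every library. Their summed level was 5360 to 6886 CPM in control and 3062 to 3381 CPM in knockdown libraries. Of 7 markers of other cells, PTPRC, PECAM1, DCN, KRT5, TP63 and CD3E were at 0.321 CPM or less everywhere and the collagen COL1A1 was at 5.32 to 14.3 CPM. The sum of these 7 was 5.43 to 14.4 CPM in control and 9.52 to 12.6 CPM in knockdown libraries, and its part in the results below was not tested.

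In MEP50 knockdown cells the transcripts of CCND1 and RBL1 fell to about the same extent, to 0.5 and 0.466 of control. CCND3 and RBL2 were lower by smaller amounts, CDK4 and RB1 differed little, CDK6 was higher at a very low level, and CCND2 was close to absent. Of the 8 genes 7 had enough reads to be tested, and CCND2 did not. With an adjusted p under 0.05 in edgeR's quasi-likelihood test, 2 of the 7 were lower, CCND1 and RBL1, against 4.88% of all 21101 tested genes. None was called higher, against 2.72% of all tested genes; 1 member, CDK6, was higher at an unadjusted p under 0.05, and DESeq2 and limma-voom also called 0. The median log2 fold change of the 7 was -0.41, and that of all tested genes was 0.002. With the replicate number as a block, 4 of the 7 were called lower, CCND3 and RBL2 being added, against 14.9% of all genes, and again 0 higher, against 11.2%. The lower calls became 1, CCND1 alone, without knockdown 2, without knockdown 3 or without control 1.

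Group ranges did not overlap for 4 lower members (CCND1, CCND3, RBL1 and RBL2), and 17.0% of all tested genes were lower in this way. They did not overlap for 1 higher member, CDK6, and 13.4% of all tested genes were higher in this way. In these bulk libraries, fewer cells at a given stage of the cycle and less RNA per cell cannot be told apart.

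**Figure D1:**
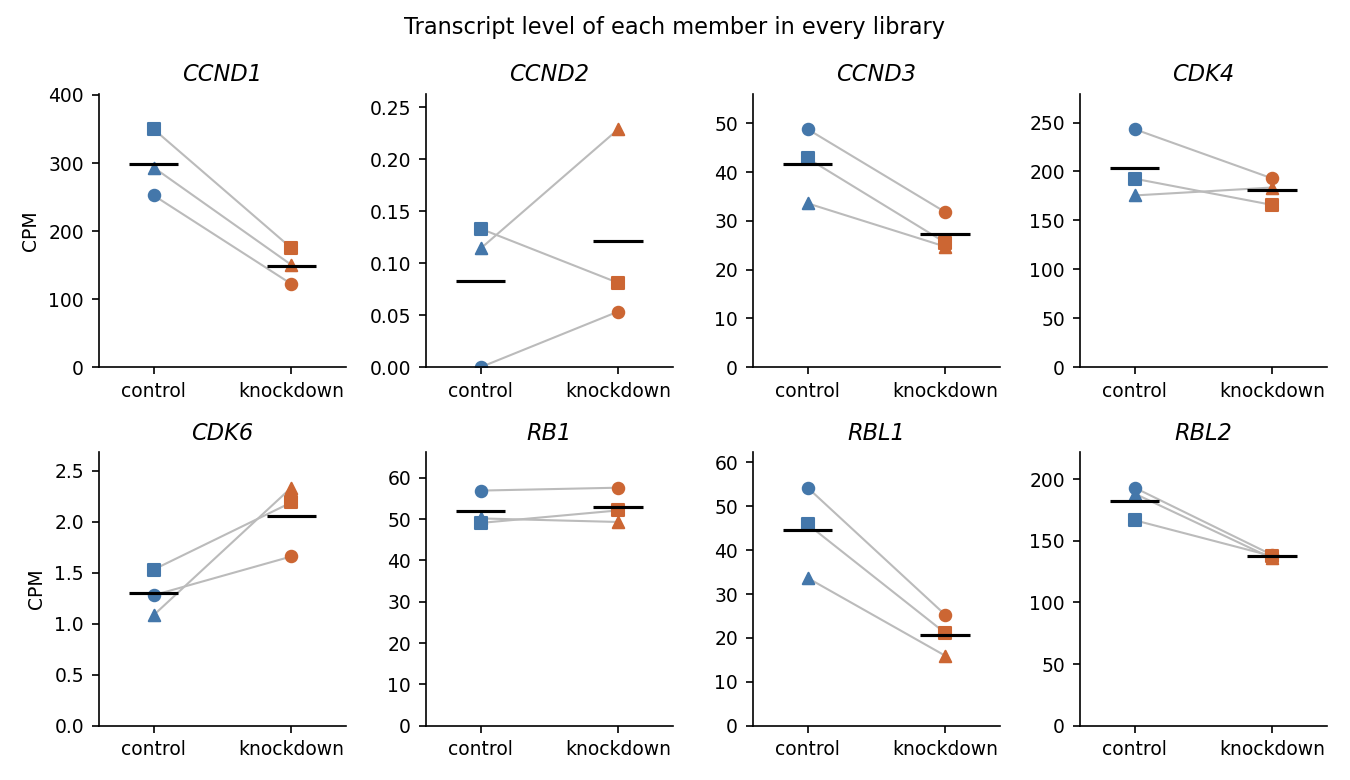
Level of each of the 8 genes in CPM (y axis, each panel from 0 with its own scale) in the 3 control and 3 knockdown libraries. Circles, squares and triangles are replicates 1, 2 and 3, grey lines join libraries of the same number and black bars are group means. CCND1, CCND3, RBL1 and RBL2 are lower in every knockdown library than in any control library, CDK6 is higher, and CDK4, RB1 and CCND2 overlap.

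**Figure D2:**
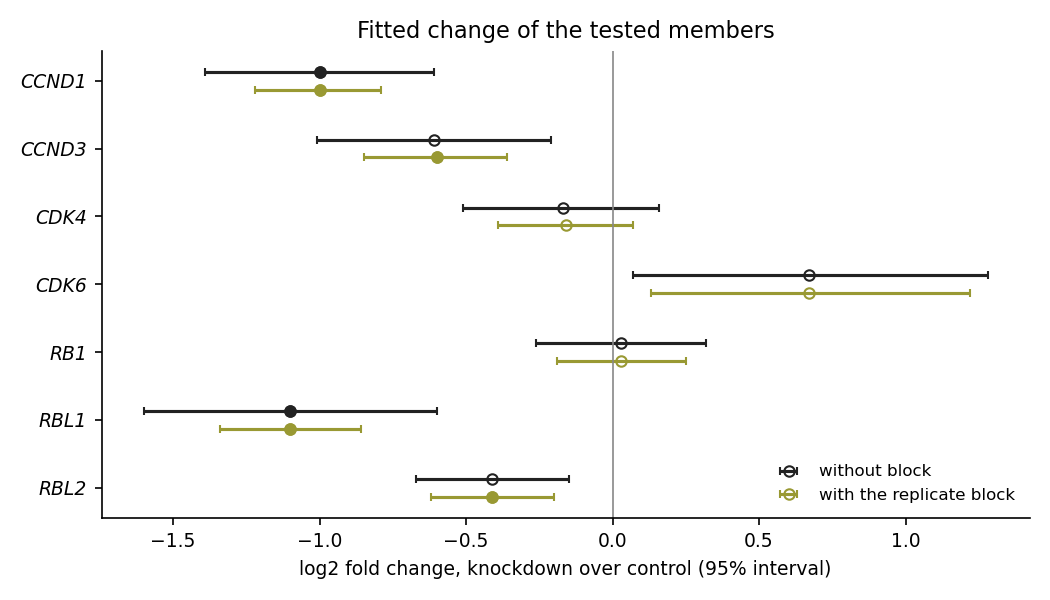
Fitted log2 fold change, knockdown over control, of the 7 tested genes with its 95% interval (x axis), without a block (black) and with the replicate number as a block (olive). Filled points have an adjusted p under 0.05 over all tested genes. CCND1 and RBL1 are filled in both fits, and CCND3 and RBL2 only with the block.

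CCND1 was the main D cyclin transcript of these cells. CCND1 (ENSG00000110092.3, chromosome 11, 69641087 to 69654474, plus strand, hg38) was at 252.4, 349.7 and 293.4 CPM in control libraries 1 to 3 and at 122.3, 175.1 and 150.4 CPM in knockdown libraries 1 to 3. The lowest control library held more than the highest knockdown library, and the order of the replicates was the same in both groups. The mean fell from 299 ± 48.8 CPM in control to 149 ± 26.4 CPM in knockdown cells (SD, n = 3 each, as for every mean here), and the log2 fold change was -1.0 (SE 0.17, 95% interval -1.39 to -0.61, adjusted p 0.0118, edgeR). Within the pairs of equal number the log2 ratio was -1.05, -1.0 and -0.96. The call held whichever of the 6 libraries was left out, the log2 fold change then lying between -1.13 and -0.88 and the adjusted p reaching at most 0.0405. In control cells CCND1 ranked 522 of all tested genes by CPM.

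On the opposite strand, the exons of ORAOV1 share 497 bases with those of CCND1, which has 4830 exonic bases. ORAOV1 was at 53.3 CPM in control and 33.1 CPM in knockdown cells (log2 fold change -0.69, adjusted p 0.0236, edgeR). The strand setting of the authors' counting is not given in the sources used here, so the shared stretch cannot be assigned to either gene.

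The 2 other D cyclins differed from each other by orders of magnitude. CCND3, the D cyclin best known from lymphoid cells (ENSG00000112576.12, chromosome 6, 41934933 to 42050357, minus strand), was at 48.81, 42.83 and 33.6 CPM in control and at 31.81, 25.55 and 24.73 CPM in knockdown libraries. The groups came close, control 3 lying just above knockdown 1. The mean was 41.8 ± 7.67 CPM in control and 27.4 ± 3.87 CPM in knockdown cells, and the log2 fold change of -0.61 (SE 0.18, 95% interval -1.01 to -0.21) was not called (adjusted p 0.0700, edgeR). It was called with the replicate block (adjusted p 0.00191) and in DESeq2 (0.0343), its within-pair log2 ratios being -0.62, -0.75 and -0.44. Without control 1 the log2 fold change was -0.44.

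CCND2 (ENSG00000118971.7, chromosome 12, 4273772 to 4305350, plus strand) had 0, 4 and 4 reads in the control and 1, 3 and 5 reads in the knockdown libraries. A count of 0 in control 1 allows up to 3 reads, or 0.116 CPM, counting error only. CCND2 is the D cyclin often silenced by promoter methylation in prostate cancer, and at this depth no difference between the groups could be seen.

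Per length, in reads scaled by exon length and library size (RPKM), the summed level of the 3 D cyclins was 60.7, 79.8 and 66.6 in control libraries and 30.8, 40.7 and 35.4 in knockdown libraries. The sum was thus 1.94-fold lower, 69.0 ± 9.79 RPKM in control against 35.6 ± 4.93 RPKM in knockdown cells. CCND1 made up 86.1, 90.7 and 91.3% of the sum in control and 82.2, 89.1 and 87.9% in knockdown libraries. These shares overlapped between the groups, with means of 89.4 ± 2.82% and 86.4 ± 3.71% (difference -2.98 percentage points, exact permutation p 0.4, two-sided). With 3 libraries against 3 the smallest p this test can give is 0.1, and over the 11 shares and ratios compared in this way the adjusted p was 0.44. Without knockdown 1 the difference was -0.867 points.

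**Figure D3:**
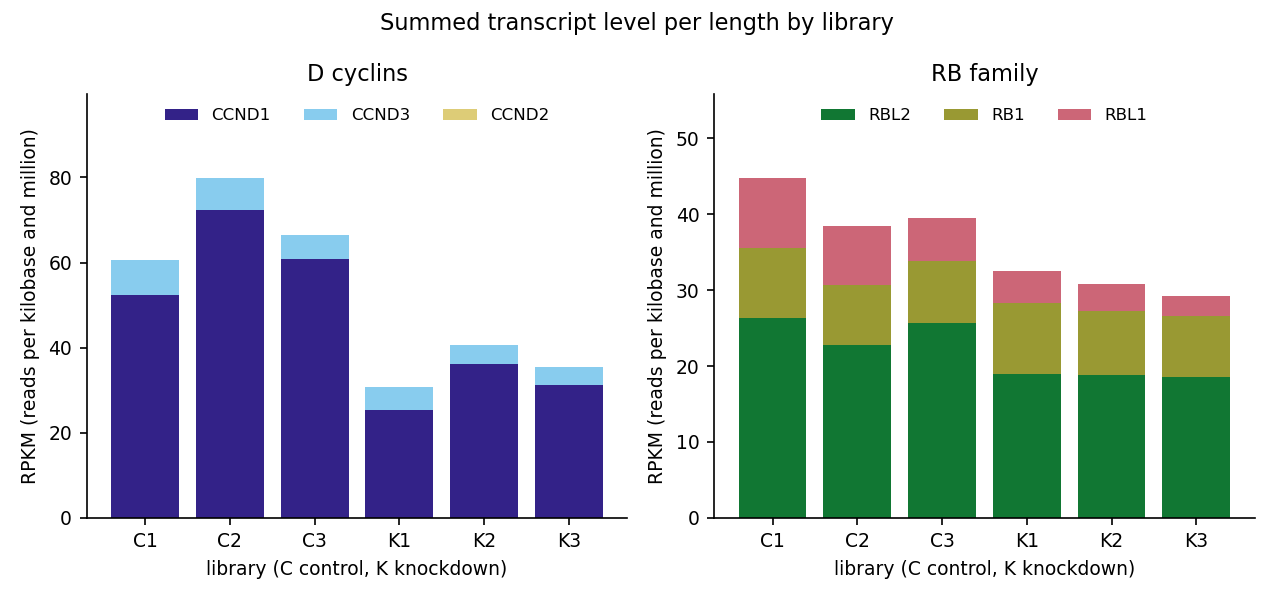
Level per length in RPKM (y axis, from 0) stacked over the D cyclins (left) and the RB family (right) in control libraries C1 to C3 and knockdown libraries K1 to K3. The D cyclin total is 60.7 or more in control and 40.7 or less in knockdown libraries, and the CCND2 layer is too thin to see; in the RB family the RB1 layer keeps its height while those of RBL1 and RBL2 are thinner in knockdown libraries.

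CDK4 carried nearly all of the kinase transcript. CDK4 (ENSG00000135446.16, chromosome 12, 57747727 to 57756013, minus strand) was at 243.2, 192.6 and 175.5 CPM in control and at 192.9, 165.8 and 183.6 CPM in knockdown libraries. The groups overlapped, and control 1 lay above all others. The means were 204 ± 35.2 and 181 ± 13.8 CPM, and the log2 fold change of -0.17 (SE 0.15, adjusted p 0.511, edgeR) had a 95% interval from -0.51 to 0.16. That interval lies above the -0.61 which is the upper end of the interval of CCND1. Without control 1 the log2 fold change was 0.02. TSPAN31 on the opposite strand shares 1369 of the 3168 exonic bases of CDK4 and was at 87.6 CPM in control and 75.9 CPM in knockdown cells, so reads of that stretch cannot be assigned.

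CDK6, the kinase that pairs with D cyclins mainly in blood and mesenchymal cells (ENSG00000105810.9, chromosome 7, 92604921 to 92836594, minus strand), had few reads. It was at 1.28, 1.532 and 1.085 CPM in control libraries, from 33, 46 and 38 reads, and at 1.66, 2.19 and 2.335 CPM in knockdown libraries, from 31, 81 and 51 reads. Every knockdown library was above every control library, the nearest being knockdown 1 and control 2. The mean was 1.30 ± 0.224 CPM in control and 2.06 ± 0.355 CPM in knockdown cells, a log2 fold change of 0.67 (SE 0.27, 95% interval 0.07 to 1.28) that was not called in edgeR without the block (adjusted p 0.157) or with it (0.0672). Per length CDK6 was 0.167 ± 0.0352% of the summed CDK4 and CDK6 transcript in control and 0.297 ± 0.0650% in knockdown cells (exact permutation p 0.1, the smallest possible, adjusted p 0.183).

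In control cells the transcripts of CCND1 and CDK4 were about level per length, at 61.8 ± 10.1 RPKM and 64.3 ± 11.1 RPKM. This rests on the exon lengths given, 4830 and 3168 bases, and protein levels were not tested. In knockdown cells CCND1 was at 30.9 ± 5.47 RPKM and CDK4 at 57.1 ± 4.35 RPKM. The log2 ratio of CCND1 to CDK4 was -0.55, 0.25 and 0.13 in control and -1.27, -0.53 and -0.90 in knockdown libraries, so that knockdown 2 just reached the range of control. The ratio was lower in knockdown in each pair, with differences of -0.72, -0.78 and -1.03 (mean difference -0.84, exact permutation p 0.2 without pairing, adjusted p 0.275).

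The 3 pocket proteins did not share 1 pattern. RB1, the retinoblastoma tumour suppressor (ENSG00000139687.13, chromosome 13, 48303751 to 48481986, plus strand), was at 56.92, 49.09 and 50.18 CPM in control and at 57.62, 52.12 and 49.32 CPM in knockdown libraries. The groups overlapped almost fully, with means of 52.1 ± 4.24 and 53.0 ± 4.22 CPM. Its log2 fold change was 0.03 (SE 0.13, 95% interval -0.26 to 0.32, adjusted p 0.927, edgeR), and within pairs the log2 ratio was 0.02, 0.09 and -0.03. Upper quartile scaling moves the median of all genes up by 0.121 on the log2 scale, and under it RB1 was at 0.15 and CDK4 at -0.05, both uncalled.

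RBL1 (ENSG00000080839.11, chromosome 20, 36996349 to 37095995, minus strand) was at 54.24, 45.89 and 33.66 CPM in control libraries 1 to 3 and at 25.27, 21.11 and 15.94 CPM in knockdown libraries 1 to 3. All knockdown libraries were below all control libraries, and replicate 1 was highest and replicate 3 lowest in both groups. The within-pair log2 ratios were -1.1, -1.12 and -1.08, a narrower spread than that of the levels themselves. The mean fell from 44.6 ± 10.4 to 20.8 ± 4.68 CPM, with a log2 fold change of -1.1 (SE 0.22, 95% interval -1.6 to -0.6, adjusted p 0.0208, edgeR). The call was lost without knockdown 2 (adjusted p 0.0841), knockdown 3 (0.0647) or control 1 (0.0565), all in fits without the replicate block. With the replicate block the adjusted p was 1.8e-05 and the interval -1.34 to -0.86. RP4-621N11.2 on the opposite strand shares 211 of the 5954 exonic bases of RBL1. It was at 1.73 CPM in control and 0.817 CPM in knockdown cells, and the reads of the shared bases cannot be assigned.

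The stretch upstream of RBL1 is printed because, among the member windows searched, only that of RBL1 held words matching the E2F consensus. The search covered windows from 250 bases before to 50 after a start site, in RefSeq sequence of GRCh38.p14, for the words TTTCCCGC, TTTCGCGC, TTTGCCGC and TTTGGCGC on both strands. The stretch shown is the 120 bases before the start, 5′ to 3′ on the strand of the gene, with E2F words in capitals.
RBL1, chr20:37095998-37096117, minus strand: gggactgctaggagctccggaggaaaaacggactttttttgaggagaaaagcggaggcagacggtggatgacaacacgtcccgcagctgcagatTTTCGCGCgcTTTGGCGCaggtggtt

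The words of RBL1, TTTCGCGC and TTTGGCGC, begin 26 and 16 bases before the start and do not overlap. Such a word was found in 3.315% of the 35116 windows listed. RefSeq windows were matched for 6 of the 8 members, CCND1 and CCND2 not being among them, and these members have 10 windows. Of the 10, 8 lie wholly inside the gene as deposited: all those of CCND3, CDK4, RB1 and RBL2, and 1 of CDK6, so the sequence before the first deposited base was not searched for the former 4 genes. A match of letters is a description of the sequence and was not tested for binding.

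RBL2 (ENSG00000103479.15, chromosome 16, 53433977 to 53491649, plus strand) was the most abundant pocket protein transcript. It was at 193.1, 166.7 and 188.3 CPM in control and at 138.5, 137.6 and 135.8 CPM in knockdown libraries. The groups were well apart, and the knockdown libraries lay within a narrow band. The mean was 183 ± 14.1 CPM in control and 137 ± 1.35 CPM in knockdown cells, and the log2 fold change of -0.41 (SE 0.11, 95% interval -0.67 to -0.15) was not called (adjusted p 0.0608, edgeR). It was called with the replicate block (0.00874) and without control 2 (0.0418), and in no other alternative. DESeq2 gave an adjusted p of 0.0758 and limma-voom 0.0591. With upper quartile scaling the log2 fold change was -0.29 (adjusted p 0.1445, edgeR). Of its 7320 exonic bases 610 are shared with AKTIP and 721 with RP11-44F14.7, both on the opposite strand. RP11-44F14.7 was at 21.0 CPM in control and 12.5 CPM in knockdown cells (log2 fold change -0.76, adjusted p 0.0612) and AKTIP at 81.9 and 67.9 CPM, and the reads of the shared bases cannot be assigned.

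Per length the RB family summed to 44.7, 38.4 and 39.5 RPKM in control and 32.5, 30.8 and 29.2 RPKM in knockdown libraries, a 1.33-fold lower mean. The share of RB1 in the sum was 20.6, 20.7 and 20.6% in control and 28.7, 27.4 and 27.3% in knockdown libraries, a spread within each group far smaller than the gap between them. The share of RBL1 was 18.2 ± 3.42% in control and 11.2 ± 1.97% in knockdown cells, and that of RBL2 was 61.1 ± 3.46% and 60.9 ± 2.65%. The shares of RB1 and RBL1 did not overlap between the groups (exact permutation p 0.1 for each, the smallest possible, adjusted p 0.183), whereas those of RBL2 did (p 1). The log2 ratio of RBL1 to RB1 was -0.02, -0.05 and -0.53 in control and -1.14, -1.25 and -1.58 in knockdown libraries. RBL1 was thus about level with RB1 per length in 2 control libraries and below it in every knockdown library. The shares of RB1 and RBL2 were added after the count table had been seen.

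In order of level per length, control cells had CDK4 and CCND1, then RBL2 at 24.96 ± 1.92 RPKM, then RB1, RBL1 and CCND3 at 8.44 ± 0.688, 7.49 ± 1.74 and 7.20 ± 1.32 RPKM, then CDK6 at 0.106 ± 0.0183 RPKM and CCND2 at 0.0115 ± 0.0101 RPKM. By the SD between libraries, CDK4 and CCND1 did not differ beyond their spread, nor did RB1, RBL1 and CCND3. Within each control library RB1 was above both RBL1 and CCND3. In knockdown cells CDK4 stood above CCND1, and the last of the middle group were CCND3 at 4.72 ± 0.668 RPKM and RBL1 at 3.49 ± 0.786 RPKM, both below RB1 at 8.59 ± 0.684 RPKM.

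**Figure D4:**
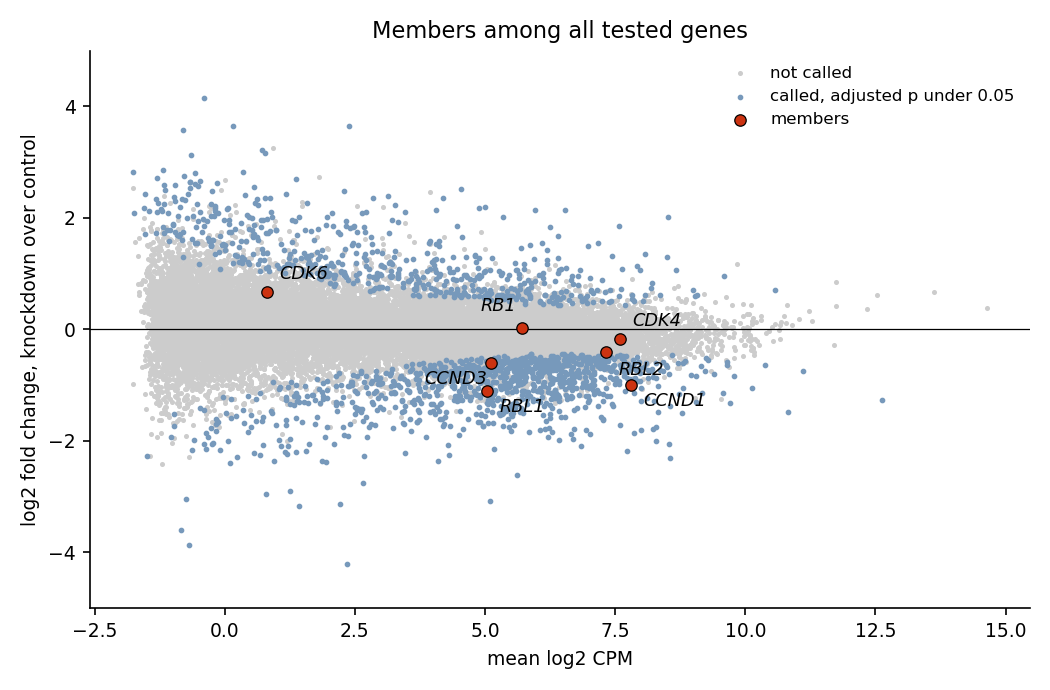
Log2 fold change, knockdown over control (y axis), against mean log2 CPM (x axis) for all 21101 tested genes, those called at an adjusted p under 0.05 in blue and the 7 tested members in red. CCND1 and RBL1 lie among the called lower genes, CCND3 and RBL2 at their edge, and CDK4 and RB1 close to 0.

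The 5 genes whose log2 CPM followed that of CCND1 most closely over the 6 libraries, of 16811 genes with a mean of at least 1 CPM, were PTPRJ, TNFRSF12A, SH2D4A, TTC6 and RP11-73M18.10. Their Pearson correlations with CCND1 were 0.9974, 0.9962, 0.9952, 0.9951 and 0.9949, given as a description since all share the same libraries and the same group difference. PTPRJ, a receptor tyrosine phosphatase, was at 85.5 CPM in control and 48.0 CPM in knockdown cells. TTC6 was at 241 and 122 CPM and SH2D4A at 37.0 and 15.4 CPM.

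Genes around this gate were taken as 9 lists of inhibitors, partners, regulators and targets, chosen with earlier results of these data known. Over 94 tested genes of these lists other than the members, 18 were called lower and 2 higher, against 4.88% and 2.72% of all genes. With the replicate block 46 were lower and 8 higher, against 14.9% and 11.2% of all genes. The same shares are the measure for the counts of each list below. The 18 became 3 without knockdown 2, 6 without knockdown 3, 6 without control 1 and 11 without control 2. The 2 higher calls became 0 without knockdown 2 and 1 without knockdown 3, control 1 or control 3. Lower calls thus made up more of these genes than of all tested genes in both fits. The higher calls were few, and in the fit without the block they lay close to the share over all tested genes. No test of these differences was made.

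Of the 7 CDK inhibitors 2 were lower, CDKN1B and CDKN2D, and the median log2 fold change was -0.14. CDKN1B, the gene of p27, which restrains CDK2 and helps to assemble cyclin D with its kinase, fell from 78.6 ± 8.92 to 43.1 ± 2.54 CPM (log2 fold change -0.87, adjusted p 0.00677, edgeR) and was called whichever library was left out. CDKN2D, an INK4 inhibitor that binds CDK4 and CDK6, fell from 10.2 ± 0.588 to 5.14 ± 0.606 CPM (-0.98, adjusted p 0.0137), a call lost without knockdown 2 (0.0661) or knockdown 3 (0.0598). With the block 3 were lower and 1 higher.

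Of 10 tested E2F and DP genes 2 were lower, with a median of -0.42, and with the block 6 were lower and 1 higher. E2F1, an activator held by RB1, fell from 77.9 ± 21.6 to 27.4 ± 11.1 CPM (-1.51, adjusted p 0.0262, edgeR). That call was lost without knockdown 2 (0.0826), control 1 (0.0613) or control 2 (0.0548). E2F8, an atypical repressor, fell from 17.7 ± 5.99 to 6.997 ± 2.59 CPM (-1.34, adjusted p 0.0448), a call lost without knockdown 2 (0.141), knockdown 3 (0.11), control 1 (0.11) or control 2 (0.0828), and with upper quartile scaling (0.0511).

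Among 7 genes of cyclin E, CDK2 and the CDK-activating kinase, which act just after the D cyclins, 1 was lower without the block, and 3 lower and 1 higher with it (median -0.25). CDK2 was at 85.3 ± 27.4 CPM in control and 36.1 ± 15.2 CPM in knockdown cells (-1.24, adjusted p 0.0496, edgeR), and only the fit without knockdown 1 kept that call among those leaving out a library (adjusted p up to 0.159; 0.0558 with upper quartile scaling). CDC25A, the phosphatase that activates CDK2, was at 60.4 ± 27.1 and 27.4 ± 10.7 CPM (-1.14, adjusted p 0.0931, and 1.86e-05 with the block).

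Of 26 S phase genes that pocket proteins repress through E2F, 8 were called lower and the median was -0.90, and with the block 24 were lower. The 8 became 11 without knockdown 1, 1 without knockdown 2, 4 without knockdown 3, 3 without control 1 and 4 without control 2. RFC3, a subunit of the clamp loader, fell from 57.0 ± 11.7 to 20.1 ± 2.64 CPM (-1.50, adjusted p 0.00324, edgeR), whichever library was left out. MYBL2, a transcription factor that joins the MuvB core, fell from 68.2 ± 18.8 to 20.2 ± 7.93 CPM (-1.76, adjusted p 0.0104), a call lost without knockdown 2 (0.0527). Groups did not overlap for 13 of the 26 genes, all 13 lower. Of all tested genes 17.0% were lower and 13.4% higher without overlap.

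Pocket proteins act on chromatin with the MuvB core and with corepressors. Of 7 genes of the MuvB core and its partners 3 were lower (median -0.42), MYBL2, LIN52 (-0.82, adjusted p 0.0399, edgeR) and LIN54. LIN54, the DNA-binding subunit, fell from 45.2 ± 7.54 to 27.0 ± 1.84 CPM (-0.74, adjusted p 0.0241, edgeR), a call lost without knockdown 2 (0.0915), knockdown 3 (0.0905) or control 1 (0.0823). The LIN52 call was lost without knockdown 2 (0.148), knockdown 3 (0.121), control 1 (0.132) or control 3 (0.0672) and with upper quartile scaling (0.0561). The 3 became 0 without knockdown 2, 1 without knockdown 3 or control 1, and 2 were called without control 3. Of 12 corepressors 2 were lower, with a median of -0.08: the deacetylase HDAC1 (-0.55, adjusted p 0.0370) and the DNA methyltransferase DNMT1 (-0.85, adjusted p 0.0288). Both calls were lost without knockdown 2 (0.139 and 0.118), knockdown 3 (0.126 and 0.0947) or control 1 (0.15 and 0.0676). HDAC1 also lost it without knockdown 1 (0.0598) or control 3 (0.0915) and with upper quartile scaling (0.0651), and DNMT1 without control 2 (0.0531).

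Cyclin D levels are set by protein turnover as well as by transcription. Of 13 tested genes of cyclin D turnover 1 was lower and 1 higher (median -0.23). CUL4A, a scaffold of the ubiquitin ligases that include the one degrading D cyclins, fell from 184 ± 13.9 to 114 ± 6.23 CPM (-0.69, adjusted p 0.0108, edgeR), whichever library was left out. DYRK1B, a kinase that phosphorylates cyclin D1 for degradation and is raised in resting cells, rose from 20.7 ± 4.77 to 43.0 ± 3.83 CPM (1.05, adjusted p 0.0133), a call lost without knockdown 2 (0.0525) or knockdown 3 (0.0511). Of 14 tested transcription factors known to act on CCND1 1 was higher, with a median of 0.21, and with the block 4 were higher and 1 lower. JUN, a subunit of AP-1, rose from 20.6 ± 5.17 to 49.6 ± 18.5 CPM (1.27, adjusted p 0.0260), a call lost without knockdown 2 (0.0776, log2 fold change 0.92), control 1 (0.0574) or control 3 (0.0863). EGR1 was at 0.125 ± 0.118 and 0.627 ± 0.138 CPM (2.25, adjusted p 0.0629, and 0.00912 with the block). In control libraries 3 reads amount to 0.0856 to 0.116 CPM, so its control level rests on few reads. DESeq2 gave EGR1 no adjusted p, and its log2 fold change ran from 1.8 to 2.91 when 1 library was left out.

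Of 4 chaperones and cochaperones of the HSP90 system, on which CDK4 and CDK6 depend to fold, 1 was lower and the median was -0.45. FKBP5, a cochaperone of HSP90 and a known androgen-induced gene, fell from 173 ± 46.4 to 83.8 ± 15.1 CPM (-1.05, adjusted p 0.0231, edgeR), a call lost without knockdown 2 (0.0803), knockdown 3 (0.071) or control 1 (0.0547). CDC37, the cochaperone that brings kinases to HSP90, was at 187 ± 20.5 CPM in control and 138 ± 13.7 CPM in knockdown cells (-0.44, adjusted p 0.0799, and 0.0064 with the block).

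**Figure D5:**
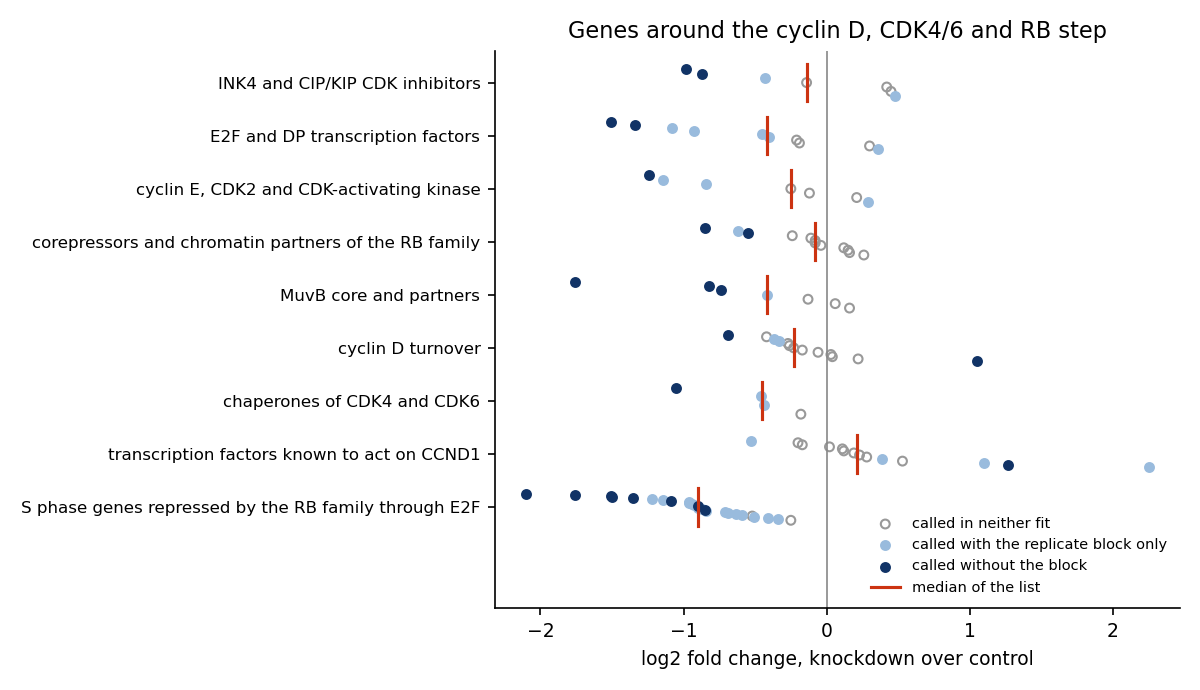
Log2 fold change, knockdown over control (x axis), of each tested gene in the 9 lists around the gate (rows), with genes called without the block in dark blue, with the replicate block only in light blue and in neither fit open. Red bars are list medians, the lowest being -0.90 for the S phase genes and the highest 0.21 for the transcription factors known to act on CCND1.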

How the data were processed

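The deposited values are whole-number read counts per gene, which per the submitters' processing notes were made with bcl2fastq, STAR 2.5, featureCounts of Subread 1.6.5 and edgeR 3.20.8 on hg38. The strand setting and annotation release are not given in the sources used here. Per the labels' protocols, Trizol-extracted RNA went into an Illumina TruSeq RNA preparation. Gene length is the exon length given in the file.

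The main test was edgeR 4.0.16 in R 4.3.3 over the whole table, fitted by quasi-likelihood, two-sided, with TMM scaling, filterByExpr and Benjamini-Hochberg adjustment over 21101 genes. The SE is the log2 fold change divided by the square root of F. CPM and RPKM use TMM-scaled totals. Shares and ratios were compared by an exact permutation test. Alternatives were a replicate block, DESeq2 1.42.0, limma-voom 3.58.1, RLE and upper quartile scaling, no filter, and leaving out each library. Each fit was tested on simulated data for knockdown against control, with 100 genes changed by a log2 of 1 and 100 by 2. The fit without the block, over 20622 genes, recovered 40% and 92% of these, and 12% of its calls were false. For the fit with the block, over 20604 genes, the values were 69%, 94% and 4.68%. Each simulation took the spread of every gene from its own fit, and only that for the fit with the block added an effect of the replicate number. The simulated gene sets also differed in size. These percentages thus describe each fit alone and do not rank the fits.

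Replicate numbers come from the library titles. Deviations from group means correlated at 0.554, 0.381 and 0.358 between libraries of equal number and from -0.39 to 0.0602 otherwise, so the numbers were taken to pair the libraries. Within a group these deviations cancel, so the lower correlations follow in part from the higher ones. The pairing was thus inferred from the same data, and the labels do not state it. The labels number the replicates without naming separate cultures, so p-values measure the spread between these libraries. All 8 members are described; per list around them the 2 genes with the smallest p are named, and LIN52 was added to complete a count after its values were seen. Members and lists were chosen with earlier results of these data known. A further prostate marker of the list is not reported here.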

Additional observations from a re-analysis of the deposited data

How the results depend on the processing

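CCND1 was called lower in the main analysis and in all 12 alternatives run. RBL1 kept its direction in all of them. CDK4, uncalled throughout, was at 0.02 without control 1 and between -0.28 and -0.11 without any other library, and RB1, also uncalled, was at -0.05, -0.03 and -0.01 without knockdown 1, control 2 and control 3. With the replicate block, 4 members were lower, 3148 genes in all were lower and 2358 higher, and 46 lower and 8 higher genes were called in the lists around the gate. The pairing changed no call of CCND1, RBL1, CDK4, CDK6 or RB1. Without a filter on low counts the calls over all genes were 1812 lower and 1336 higher, and those in the lists 36 and 4. Upper quartile scaling gave 894 higher genes against 574, and DESeq2 gave 31 lower genes in the lists against 18. The CDK6 share differed by 0.495 percentage points when computed from reads without gene length, against 0.13 per length. Leaving out 1 library gave 329 to 923 lower and 168 to 500 higher genes over all, 1 to 3 lower members, and 3 to 20 lower and 0 to 2 higher genes in the lists. Depth limits CCND2, with at most 5 reads in a library, CDK6, with 31 to 81, and, in the lists, EGR1.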

Other observations

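The E2F words described for RBL1 were also counted in the lists around the gate, as a description. At least 1 RefSeq window held such a word for 15 of the 22 S phase genes with a window (68.2%), for 4 of 9 E2F and DP genes, E2F1, E2F2, E2F3 and TFDP1, and for 2 of 7 genes of the MuvB core and its partners. Such a word was also found for 1 of 5 genes of the cyclin E and CDK2 list and for 2 of 12 corepressors. It was found for 1 of 13 genes of cyclin D turnover and for 1 of 4 chaperones. The share was 3.99% of the 27305 symbols in the table. Of the 6 CDK inhibitors and the 15 transcription factors known to act on CCND1 with a window, none held one. Genes with several listed starts have more windows, and the lists were chosen with the E2F link of the S phase genes known.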
